A study of Mus musculus with 8 samples.

Results

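The water channel gene Aqp4 and 8 genes of the astrocyte endfoot were followed in the brains of Akap11 conditional knockout mice (cKO) and control mice. The 9 genes, out of 57186 listed in the count files, are the channel genes Aqp4 and Kcnj10, the dystrophin complex genes Dag1, Dtna and Dmd, the gap junction genes Gja1 and Gjb6, and the pair Mlc1 and Hepacam. Aqp4 was chosen because it was higher in every cKO library, so its own difference is given as a description with no test. The other 8 genes, called partners here, were chosen by their known place at the endfoot, and the comparison asks whether they moved with Aqp4.

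Total RNA of mouse brain was sequenced from 4 libraries of AKAP11 conditional knockout mice and 4 libraries of control mice. Akap11 encodes an anchoring protein of protein kinase A. The labels name no recombinase or promoter, deleted exons, control genotype, strain, age, sex or brain region. They do not say that each library is a separate animal either, and the p-values reflect only how far these libraries vary, which may be technical.

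Endfeet are the ends of astrocyte processes that wrap brain vessels and line the brain surface. Aquaporin-4 is held in the endfoot membrane by the dystrophin complex, which reaches through dystroglycan to laminin and agrin of the vessel's basement membrane. Kir4.1 carries potassium across the same membrane, connexins 43 and 30 join neighbouring astrocytes, and MLC1 with its chaperone GlialCAM is found at the junctions between endfeet.

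Reads in genes numbered from 13841218 to 19991942 per library, and the 9 genes held from 712 to 5771 reads in any 1 library, for a counting error of 3.75% to 1.32%. Akap11 was lower in every cKO library, at 228 ± 12.7 CPM in cKO and 323 ± 35.3 CPM in control brain (SD, n = 4 each; edgeR adjusted p 0.0103). CPM are read counts relative to the TMM-scaled library size. The library cKO replicate 1 stands apart: genes took 63.8% of its reads and 73.7% to 79.7% of those of the other 7 libraries, and it lay at 39.1 on the first principal component, with the others between -10.5 and 0.48. Control replicate 1 stands apart on the second component, at 31.0, with the others between -14.3 and 3.77. Values without these libraries are given beside each gene they move.

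To show the upstream DNA of the partners, the 250 bases before the transcript start are printed for Kcnj10, whose fold change was the highest of the partners, and for Gja1, the partner whose window alone held the TGACG core of the cAMP response element. Sequences are from RefSeq, build GRCm38.p6, and are printed 5′ to 3′ along the gene, with TGACG and CCAAT in capitals wherever they occur on either strand.
Kcnj10, chr1:172340960-172341209, plus strand: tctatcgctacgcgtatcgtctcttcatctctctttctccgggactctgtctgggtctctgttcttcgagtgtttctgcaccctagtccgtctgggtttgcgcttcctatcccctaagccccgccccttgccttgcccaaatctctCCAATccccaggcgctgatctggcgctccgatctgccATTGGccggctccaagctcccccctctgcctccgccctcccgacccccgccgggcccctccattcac
Gja1, chr10:56377050-56377299, plus strand: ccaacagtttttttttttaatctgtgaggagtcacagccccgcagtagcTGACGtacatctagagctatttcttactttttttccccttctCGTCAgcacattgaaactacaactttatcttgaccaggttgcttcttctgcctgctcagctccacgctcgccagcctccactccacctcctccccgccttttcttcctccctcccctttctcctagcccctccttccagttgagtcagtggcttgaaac
Windows were at hand for 7 of the 9 genes, as 9 windows in all, and none was at hand for Aqp4 and Dtna. For Mlc1 the bases just after the window were not found near the start of its annotated transcripts, so its start is less sure. The Kcnj10 window held 2 CCAAT boxes and the Gja1 window none. The TGACG core occurred 2 times in the Gja1 window and in no other, against 17.8% of all 32851 windows of this length. CCAAT boxes occurred in 33.8% of all windows. The full element TGACGTCA, which includes that core, occurred in 1.55% of all windows and in 0 of the 9. These are letter matches and no sites.

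Aqp4, the water channel itself (ENSMUSG00000024411, chromosome 18), was at 186, 202, 218 and 215 CPM in cKO replicates 1 to 4, against 155, 135, 163 and 145 CPM in control replicates 1 to 4. Every cKO library lay above the highest control library, which is the pattern the gene was chosen for. Means were 205 ± 14.9 CPM in cKO and 149 ± 11.8 CPM in control brain (SD, n = 4 each), 1.37-fold or 0.46 on the log2 scale (SE 0.067). Among cKO libraries the value was lowest in replicate 1, the library that stands apart, and the log2 fold change was 0.50 without it and 0.52 without both such libraries. An antisense gene, AC133525.2, lies across Aqp4 but shares 0 exon bases with it in the GENCODE M21 annotation, and held 11 to 32 reads per library.

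**Figure D1:**
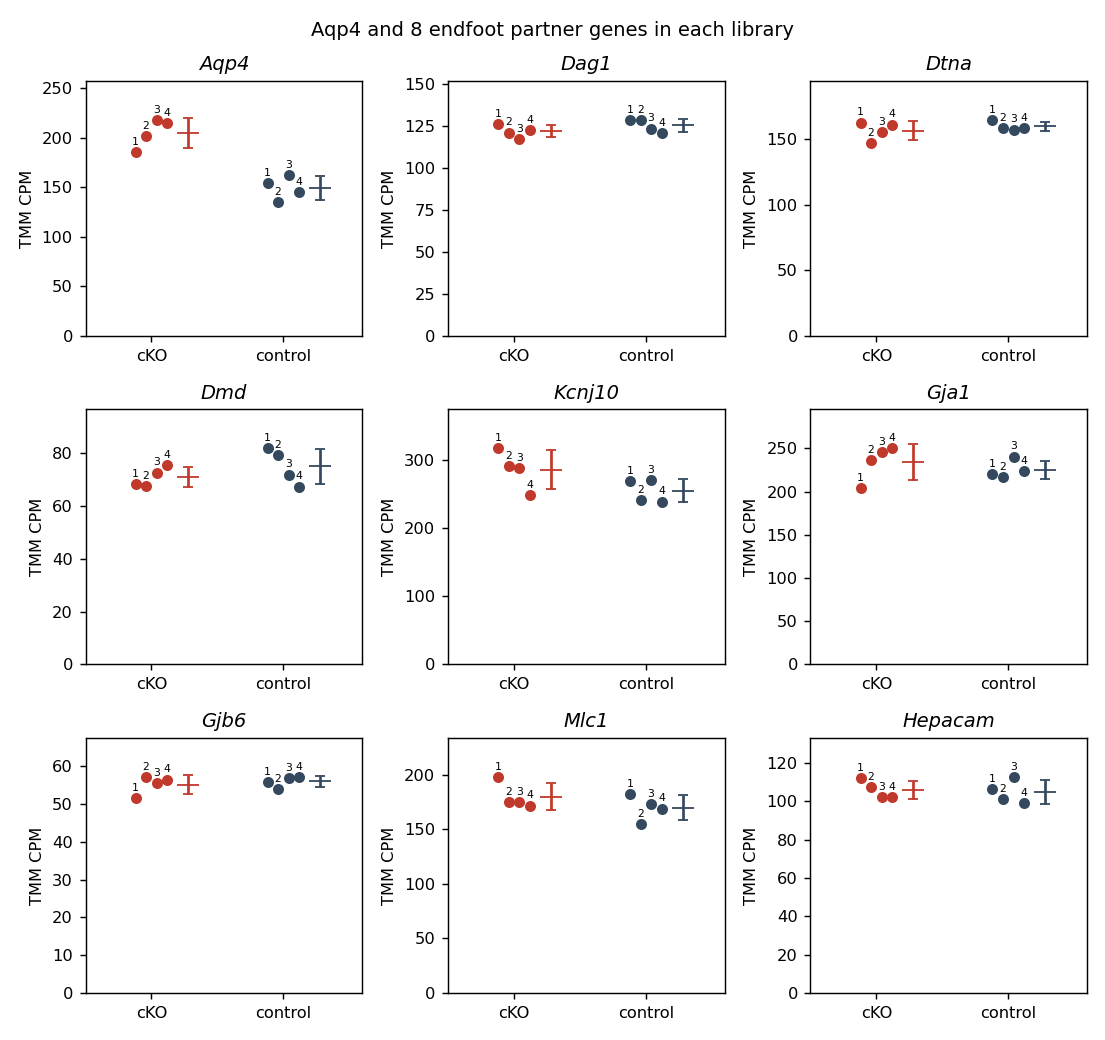
Level of each gene in each library, in TMM-scaled CPM (vertical axis, from 0); points are libraries labelled by replicate number, and the bar beside them is the mean with its SD. Aqp4 alone has all 4 cKO libraries above all 4 control libraries, with 186 CPM as the lowest cKO and 163 CPM as the highest control value.

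No partner passed the test for a difference between cKO and control brain. By edgeR's quasi-likelihood test, with adjustment over all 16766 genes tested, 0 of 8 passed the threshold of 0.05 in either direction (adjusted p 0.889 to 0.975). Across all genes 0.0239% passed, in either direction. The log2 fold changes, cKO minus control, ran from -0.08 to 0.17, 4 above and 4 below 0 where 51.2% of all genes were above, with a median of -0.0035 beside 0.0034 over all genes tested. DESeq2 and limma voom also called 0 of 8, but they called only 4 and 2 genes in all. With so few calls, 0 of 8 tells little about the partners in any of these tools. An unadjusted p under 0.05 was reached by 1 of 8 in each of these 3 tools, where edgeR gave 4.78% of all genes. In edgeR 0.0119% of all genes passed as higher and 0.0119% as lower. In 0 of 8 did the groups stand wholly apart, where 1.57% of all genes had every cKO library above and 1.39% every cKO library below the controls. These tests use the libraries on which Aqp4 was chosen, and they read RNA of the whole sample, in which fewer cells of a type and less RNA per cell cannot be told apart.

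The 95% intervals of the edgeR fit given above describe each partner by itself and not the 8 jointly. For the 7 partners other than Kcnj10, no interval reached above 1.16-fold or below 0.856-fold. For Kcnj10 the upper bound was 1.24-fold. Aqp4 stood at 1.37-fold (interval 1.25 to 1.51), with no test because it was chosen on these values. The bounds of the partners hold for that fit alone. With 1 library left out, the log2 fold change ran from 0.11 to 0.23 for Kcnj10. It ran from 0.03 to 0.12 for Mlc1 and from -0.13 to -0.03 for Dmd.

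**Figure D2:**
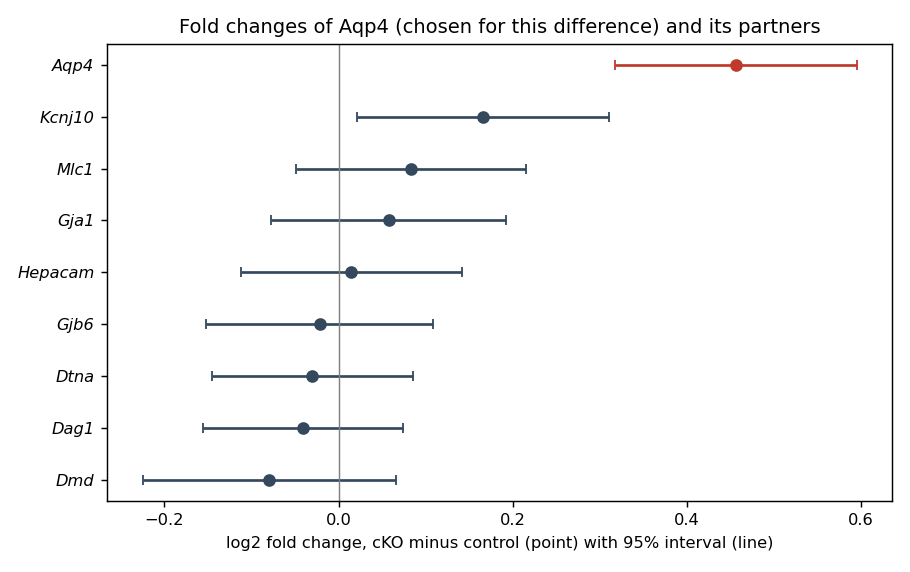
Log2 fold change of each gene, cKO minus control (horizontal axis), with the 95% interval of the edgeR fit as a line. The line of Aqp4 is a description and no test, and its distance from 0 follows from the choice of the gene. Aqp4, chosen for this difference, stands at 0.46, Kcnj10 at 0.17, and the other 7 partners between -0.08 and 0.08.

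Kcnj10 encodes Kir4.1, the inward-rectifier potassium channel of astrocytes, and was the partner with the highest fold change. It was at 318, 291, 289 and 248 CPM in cKO replicates 1 to 4, against 269, 242, 271 and 239 CPM in control replicates 1 to 4. Replicates 1 to 3 of cKO lay above every control library, and cKO replicate 4 lay among the controls. The log2 fold change was 0.17 (SE 0.069, 95% interval 0.02 to 0.31), with an unadjusted p of 0.0269 and an edgeR adjusted p of 0.889. It was 0.11 without cKO replicate 1 (unadjusted edgeR p 0.0928) and 0.19 without control replicate 1 (unadjusted edgeR p 0.0173). Without cKO replicate 1 and control replicate 1 together it was 0.14 (unadjusted edgeR p 0.0357), and without cKO replicate 4 it was 0.23 (unadjusted edgeR p 0.0028). With offsets for GC content it was 0.17 (unadjusted edgeR p 0.0221). Kcnj10 did not pass after adjustment in any of these fits.

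Dag1 encodes dystroglycan, the receptor that spans the membrane and binds laminin outside the cell. It was at 126, 121, 117 and 123 CPM in cKO replicates 1 to 4, against 128, 129, 123 and 121 CPM in control replicates 1 to 4. The groups overlapped, 1 cKO library lying below the lowest control. On the log2 scale the fold change was -0.04 (SE 0.055, 95% interval -0.16 to 0.07; edgeR adjusted p 0.924). It was -0.03 without control replicate 1, and -0.06 without cKO replicate 1 or without control replicate 4.

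Dtna encodes alpha-dystrobrevin, an adaptor that binds dystrophin and syntrophins. It was at 163, 147, 156 and 161 CPM in cKO replicates 1 to 4, against 165, 159, 157 and 158 CPM in control replicates 1 to 4. The lower 2 cKO libraries lay below every control library and the others among them. Its log2 fold change was -0.03 (SE 0.055, 95% interval -0.15 to 0.09; edgeR adjusted p 0.942). It was -0.01 without control replicate 1 and -0.00028 without cKO replicate 2, and -0.05 without cKO replicate 1 or without cKO replicate 4. An antisense gene, Gm47898, shares 90 exon bases with Dtna, 0.532% of its exon length, and held 4 to 14 reads per library.

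Dmd encodes dystrophin, which links the complex to actin. It was at 68.2, 67.6, 72.7 and 75.5 CPM in cKO replicates 1 to 4, against 81.9, 79.2, 71.9 and 67.4 CPM in control replicates 1 to 4. All cKO values lay inside the control range. Its log2 fold change was -0.08 (SE 0.070, 95% interval -0.22 to 0.07; edgeR adjusted p 0.897). It was -0.03 without control replicate 1, -0.13 without control replicate 4, and -0.02 without cKO replicate 1 and control replicate 1 together. Neurons and glia use different promoters of Dmd, glia mainly the short product, and a count per gene does not tell these products apart.

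Gja1 encodes connexin 43, the more widespread of the astrocyte gap junction proteins. It was at 204, 236, 246 and 250 CPM in cKO replicates 1 to 4, against 220, 216, 240 and 223 CPM in control replicates 1 to 4. Of the cKO libraries 2 lay above every control and 1, replicate 1, lay below every control. For the group difference the log2 fold change was 0.06 (SE 0.064, 95% interval -0.08 to 0.19; edgeR adjusted p 0.911). It was 0.11 without cKO replicate 1 (unadjusted edgeR p 0.0359). Without cKO replicate 1 and control replicate 1 together it was also 0.11 (unadjusted edgeR p 0.0381). With offsets for GC content it was 0.10 (unadjusted edgeR p 0.0576). It was lower without cKO replicate 3 (0.03, p 0.687), cKO replicate 4 (0.02, p 0.759) or control replicate 2 (0.04, p 0.616) in the same edgeR test.

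Gjb6 encodes connexin 30, the other main connexin of astrocytes. It was at 51.5, 57.1, 55.6 and 56.5 CPM in cKO replicates 1 to 4, against 55.9, 54.1, 57.0 and 57.2 CPM in control replicates 1 to 4. Replicate 1 of cKO was lowest of all, and the other cKO values lay inside the control range. Between the groups the log2 fold change was -0.02 (SE 0.062, 95% interval -0.15 to 0.11; edgeR adjusted p 0.966). It was 0.0045 without cKO replicate 1, and -0.04 without control replicate 2, cKO replicate 2 or cKO replicate 4. Reads of Gja1 per read of Gjb6 were 4.24 ± 0.227 in cKO and 4.01 ± 0.143 in control brain (SD, n = 4 each), with overlapping groups.

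Mlc1 encodes the membrane protein lost in human megalencephalic leukoencephalopathy with subcortical cysts. It was at 198, 175, 175 and 172 CPM in cKO replicates 1 to 4, against 182, 155, 173 and 169 CPM in control replicates 1 to 4. The high cKO value is that of replicate 1, and the other 3 lay inside the control range. The log2 fold change was 0.08 (SE 0.063, 95% interval -0.05 to 0.22; edgeR adjusted p 0.889). It was 0.03 without cKO replicate 1 and 0.04 without control replicate 2. Without control replicate 1 it was 0.12 (unadjusted edgeR p 0.0796), and 0.07 without cKO replicate 1 and control replicate 1 together.

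Hepacam encodes GlialCAM, the adhesion protein that brings MLC1 to cell junctions. It was at 112, 107, 102 and 102 CPM in cKO replicates 1 to 4, against 106, 101, 113 and 98.9 CPM in control replicates 1 to 4. All cKO values lay inside the control range. The log2 fold change was 0.01 (SE 0.061, 95% interval -0.11 to 0.14; edgeR adjusted p 0.975). With 1 library left out it ran from -0.02 (without cKO replicate 1) to 0.05 (without control replicate 3). Reads of Mlc1 per read of Hepacam were 1.70 ± 0.0557 in cKO and 1.62 ± 0.103 in control brain (SD, n = 4 each), with overlapping groups.

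The library cKO replicate 1 took opposite ends in different genes. Within the cKO group it was highest for 5 genes, Dag1, Dtna, Kcnj10, Mlc1 and Hepacam, and lowest for 3, Aqp4, Gja1 and Gjb6. The GC content of the longest transcript was 46.1% to 53.3% for these 5 genes, and 41.4%, 42.2% and 49.6% for Aqp4, Gja1 and Gjb6. The part of GC content in these values was not tested gene by gene, and with offsets for GC content Aqp4 stood at 0.50, Gja1 at 0.10, Mlc1 at 0.07 and Hepacam at -0.01. Among controls, 7 of 9 genes lay above the group mean in replicate 1 and 1 of 9 in replicate 4.

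**Figure D3:**
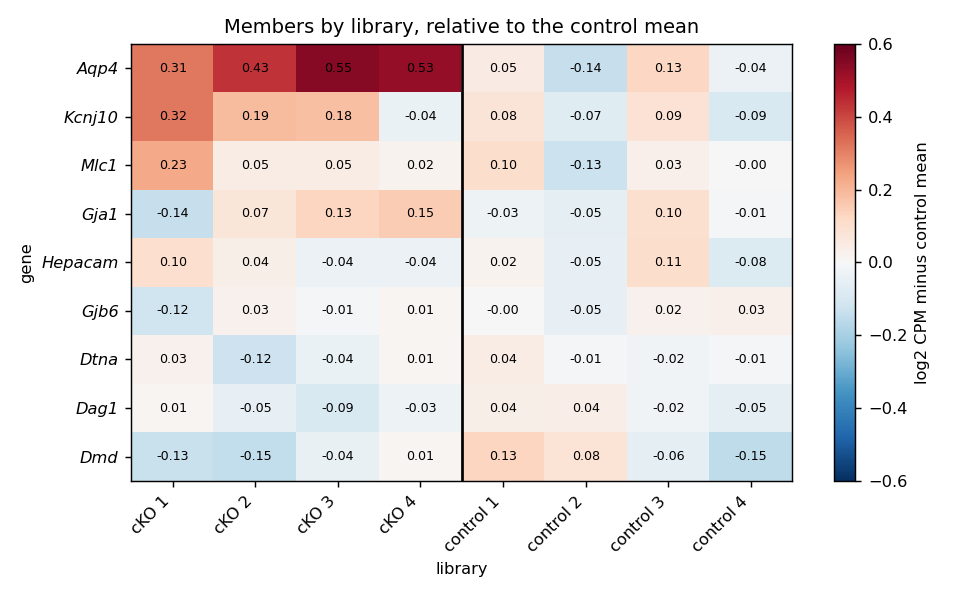
Log2 CPM of each gene (rows, by fold change) in each library (columns, cKO left of the line and control right of it), minus the control mean of the gene; red is higher and blue lower. The Aqp4 row is 0.31 to 0.55 in the 4 cKO libraries, while Kcnj10 runs from 0.32 in cKO replicate 1 to -0.04 in cKO replicate 4.

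Set against single partners, Aqp4 reads were more numerous per partner read in cKO brain for all 8 partners, by 1.23-fold (Kcnj10) to 1.45-fold (Dmd). In 6 of the 8 ratios every cKO library lay above every control library, and dividing Aqp4 by each other gene tested gave this for 53.5% of all genes, so the count is not read as a result about the partners. For Gja1 the ratio was 0.909, 0.853, 0.887 and 0.860 in cKO replicates 1 to 4, against 0.702, 0.626, 0.677 and 0.651 in control replicates 1 to 4. This ratio varied little within a group, also in cKO replicate 1, where Aqp4 and Gja1 were both low. For Kcnj10 it was 0.584, 0.692, 0.755 and 0.866 in cKO replicates 1 to 4, against 0.574, 0.559, 0.601 and 0.607 in control replicates 1 to 4, so the groups overlapped through cKO replicate 1. The ratio to Mlc1 overlapped in the same library. The ratios hold the values Aqp4 was chosen on and carry no test.

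**Figure D4:**
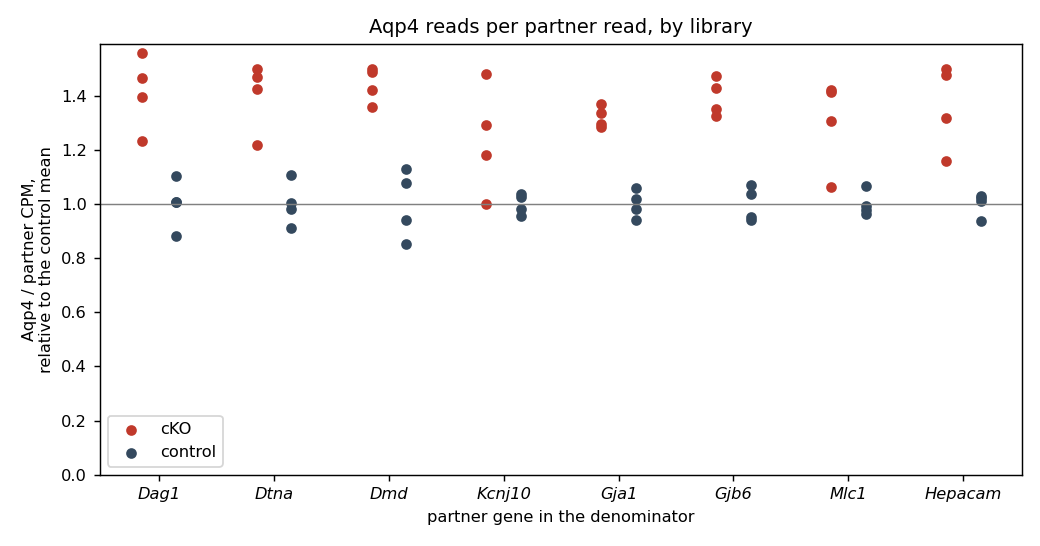
Aqp4 CPM divided by the CPM of each partner, relative to the mean control ratio (vertical axis, from 0), for each library. In 6 of the 8 partners the cKO points (left of each pair) lie wholly above the control points, while for Kcnj10 and Mlc1 cKO replicate 1 lies among the controls.

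Levels between genes were compared per transcript length, as TPM, length-scaled transcript shares, over the joined exons. In control brain Mlc1 was highest at 247 ± 16.9 TPM, followed by Kcnj10 at 192 ± 13.3 TPM, Hepacam at 128 ± 7.95 TPM and Aqp4 at 97.8 ± 8.07 TPM (SD, n = 4). Gja1, Gjb6 and Dag1 stood at 89.4 ± 4.64, 85.4 ± 2.44 and 80.3 ± 2.30 TPM in control brain, Dtna at 38.5 ± 0.739 TPM and Dmd at 12.9 ± 1.11 TPM (SD, n = 4). From Aqp4 down to Dag1 each gene overlapped the next in the order over the control libraries, and the other neighbours did not overlap. In cKO brain the order was the same but for Aqp4, which at 134 ± 10.2 TPM stood next below Kcnj10 and overlapped Hepacam at 129 ± 6.36 TPM (SD, n = 4 each), and no longer overlapped Gja1 at 92.8 ± 8.15 TPM. For Dmd and Dtna, long genes with several products, the joined exons exceed any 1 transcript, so their TPM understate the level. The order of the other genes also depends on the lengths used. Gja1, over 10257 bases, lay below Aqp4 in control TPM but above it in control CPM (225 ± 10.6 against 149 ± 11.8, SD, n = 4 each). Whether its joined exons exceed its main transcript was not tested.

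**Figure D5:**
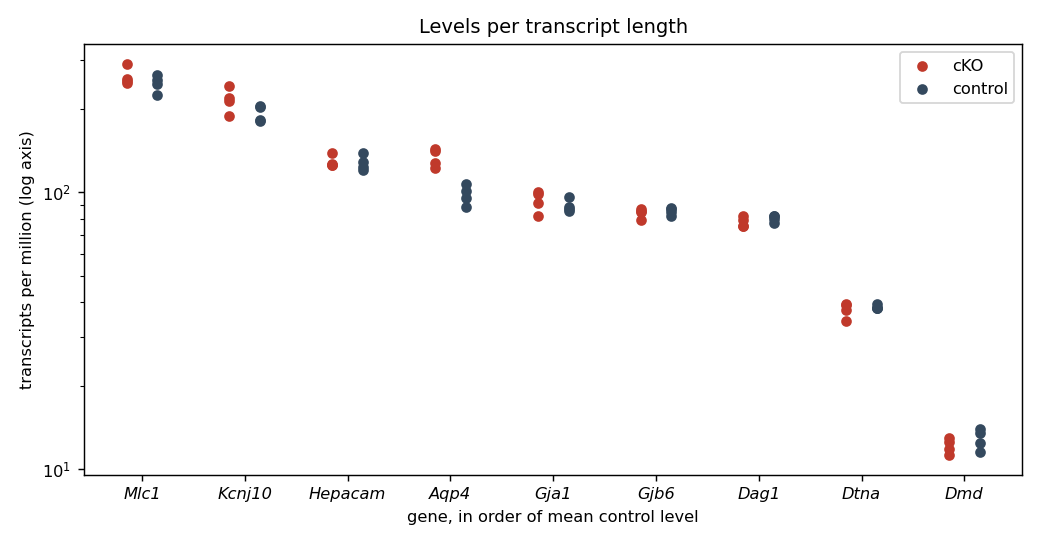
TPM of each gene in each library (log axis), in order of the mean control level, with cKO left and control right of each pair. Aqp4 spans 123 to 143 TPM in cKO, among the Hepacam values of cKO brain, and 88.2 to 107 TPM in control, next to Gja1.

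Other genes of the same structures were read from 7 lists written from general knowledge, of which 77 genes were tested. By edgeR 0 of the 77 passed in either direction, where 0.0239% of all genes did. An unadjusted p under 0.05 was reached by 3 higher and 1 lower, where 2.87% and 1.91% of all genes did. Every cKO library lay above every control for 1 of the 77, where 1.57% of all genes did so. Every cKO library lay below every control for 1, an astrocyte transport gene, where 1.39% of all genes did so. The median log2 fold change was -0.0092 over the 77, beside 0.0034 over all genes tested.

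Of 12 further dystrophin complex genes tested, 4 had a positive log2 fold change and 8 a negative one (median -0.04), and 0 passed. Utrn, encoding the dystrophin relative utrophin, stood at 89.3 ± 2.73 CPM in cKO and 94.7 ± 6.64 CPM in control brain (SD, n = 4 each), and Nos1, the neuronal nitric oxide synthase that binds the complex, at 81.1 ± 5.86 CPM in cKO and 87.1 ± 6.79 CPM in control brain. Of 16 genes that glycosylate dystroglycan, 11 were positive and 5 negative (median 0.05), and 0 passed. Dpm2, a subunit of dolichol-phosphate mannose synthase, had a log2 fold change of 0.17 (SE 0.077), with the lowest unadjusted edgeR p of that list (0.0384).

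Of 17 basement membrane genes, 9 were positive and 8 negative (median 0.01), and 0 passed. Agrn, encoding agrin, a ligand of dystroglycan, was at 262 ± 22.3 CPM in cKO and 236 ± 15.1 CPM in control brain (SD, n = 4 each), 0.15 on the log2 scale (SE 0.065, edgeR adjusted p 0.889). The collagen IV gene Col4a2 had 0.14 (SE 0.064), with every cKO library above every control, where 1.57% of all genes stood so. Its divergent neighbour Col4a1 had -0.03 (SE 0.076). Among 13 other connexin, pannexin and junction scaffold genes 7 were positive, 6 negative and 0 passed, with Gjc3, an oligodendrocyte connexin, at 0.03 (SE 0.095).

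Of the 6 genes tied to MLC1 and GlialCAM, 3 were positive and 3 negative and 0 passed, with the receptor gene Gprc5b at 0.07 (SE 0.062) and Gpr37l1 at 0.11 (SE 0.073). Of 10 astrocyte ion and glutamate transport genes, 1 was positive and 9 negative (median -0.07), and 0 passed. Slc1a2, the main glutamate transporter, was at 2383 ± 239 CPM in cKO and 2732 ± 260 CPM in control brain (SD, n = 4 each), -0.20 on the log2 scale (SE 0.075, edgeR adjusted p 0.889). Atp1b2, a sodium pump subunit of astrocytes, stood at 0.10 (SE 0.059). Of the other 11 aquaporin genes listed, 3 passed the low-count filter. These were Aqp11 at 20.0 ± 1.24 CPM in cKO and 19.0 ± 0.866 CPM in control brain, Aqp1, the choroid plexus channel, at 2.45 ± 0.365 CPM in cKO and 3.13 ± 0.223 CPM in control brain, and Aqp9 at 2.05 ± 0.258 CPM in cKO and 1.45 ± 0.411 CPM in control brain (SD, n = 4 each). By edgeR all 3 missed the threshold (adjusted p 0.889 to 0.913).

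Astrocyte markers outside the 9 genes did not share the Aqp4 pattern as a sum, though 2 of the 18 did singly. The 18 markers summed to 6431 to 7025 CPM in cKO libraries, against 6884 to 7608 CPM in control libraries, so 0 cKO libraries lay above the highest control. Of the 18, 11 had a positive and 7 a negative log2 fold change (median 0.04), and 0 passed by edgeR. Ntsr2, a neurotensin receptor of astrocytes, had the lowest unadjusted p of the list (0.00136) and stood at 132 ± 11.9 CPM in cKO and 111 ± 4.43 CPM in control brain (SD, n = 4 each; edgeR adjusted p 0.889). All 4 cKO libraries lay above all 4 controls for Ntsr2, at 125 to 149 CPM in cKO and 106 to 116 CPM in control libraries. They did so too for Gfap, the astrocyte intermediate filament gene, named after its values were seen, at 225 to 242 CPM in cKO and 139 to 219 CPM in control libraries (0.33 on the log2 scale, SE 0.11, edgeR adjusted p 0.889). These are 2 of 18 markers, where 1.57% of all genes stood apart in this direction. Per 1000 CPM of the summed markers, Aqp4 was at 28.8, 28.7, 31.9 and 31.5 in cKO replicates 1 to 4, against 20.3, 19.7, 22.4 and 21.04 in control replicates 1 to 4. The groups stood apart on this scale too, by 0.54 on the log2 scale, or by 0.43 when each marker had equal weight. On the same scale Mlc1 also stood apart, at 24.9 to 30.8 in cKO and 22.5 to 24.4 in control libraries, and the other 7 genes overlapped. On CPM alone Mlc1 overlapped. The marker sum averaged 6778 ± 249 CPM in cKO and 7167 ± 342 CPM in control libraries (SD, n = 4 each), so dividing by it raises every gene in cKO, and 3.39% of all genes had every cKO library above every control on this scale. Slc1a2 makes up much of the sum, and its part in these ratios was not tested apart from the equal weighting.

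Sums of markers of other cells overlapped between the groups for neurons, oligodendrocytes, their precursors, microglia, endothelium, mural cells, ependyma, choroid plexus and meninges. Endothelial markers, whose cells the endfeet cover, summed to 323 to 347 CPM in cKO and 342 to 370 CPM in control libraries, with 2 of 10 markers positive. Only cKO replicate 2 reached the control range. By edgeR 0 of the 10 passed, and 2 were lower at an unadjusted p under 0.05, where 1.91% of all genes were. For 1 of the 10 every cKO library lay below every control, where 1.39% of all genes did so. Mural cell markers summed to 226 to 234 CPM in cKO and 203 to 256 CPM in control libraries. On the meningeal list 6 of 8 markers were positive. By edgeR 2 were higher at an unadjusted p under 0.05, where 2.87% of all genes were. For 1 every cKO library lay above every control, where 1.57% of all genes did so. The microglia (10) and ependyma (6) lists each held 1 marker lower at that p, beside the same 1.91%. For 1 microglia marker every cKO library lay below every control, beside 1.39%. Choroid plexus markers were positive in 1 of 7, and 0 on these lists passed. No marker on any list was at 0 in all libraries.

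Likeness to Aqp4 was read as the root mean square difference between the 8 log2 CPM values of a gene and those of Aqp4, each taken from the control mean. Over 10367 genes with a mean of at least 10 CPM, Kcnj10 ranked 290 (0.26), Gja1 1077 (0.29), Mlc1 1176 (0.29), Hepacam 3469 (0.33), Gjb6 4740 (0.35), Dtna 5926 (0.36), Dag1 6689 (0.37) and Dmd 8286 (0.40). Leaving out the 9 genes and genes without a symbol, 10322 genes were ranked, and the nearest 5 were Zbtb2 (0.07), a zinc finger gene, Mterf4 (0.16), a factor of mitochondrial ribosome assembly, Tst (0.16), a mitochondrial sulfurtransferase, Ctu2 (0.16), which thiolates transfer RNA, and Mmp14 (0.16), a membrane metalloproteinase. Zbtb2 averaged 13.2 ± 0.541 CPM in cKO brain (SD, n = 4), 1.32-fold its control mean. Being chosen for likeness to a gene that differs between the groups, these genes had to differ as well, and the ranking carries no test.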

How the data were processed

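The authors deposited 1 table of raw counts for each library, whole numbers that show no normalization. HISAT2 and GRCm39 are named in the labels, per the submitters' processing notes. Its version, the counter, its strand setting and the annotation: not given in the sources used here. Sense and antisense reads therefore cannot be separated. The 5 entries that name no gene (20.3% to 36.2% of reads) were left out. Symbols for 51880 of 57186 identifiers came from a separate list of gene names. Chromosomes, exon lengths and GC content came from GENCODE M21 (GRCm38), matched by identifier. Its coordinates also served to find genes that overlap the members, whose counts were then taken by identifier.

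Genes were filtered with filterByExpr (16766 kept, all 9 members among them), scaled by TMM and compared with edgeR 4.0.16 (quasi-likelihood, robust, group only) under R 4.3.3. P-values were adjusted by Benjamini-Hochberg over the whole table, with a threshold of 0.05. Log2 CPM used a prior count of 2. The scripts were tested on simulated data. Alternatives were DESeq2 1.42.0, limma 3.58.1 voom, other filters and scalings, GC-content offsets (loess, span 0.5), 1 surrogate variable (sva 3.50.0), the replicate number as a block, and libraries left out.

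The members and lists were chosen with earlier results of these data known. Genes named besides the members were, per list, the 3 with the highest mean CPM and the 1 with the lowest p, a part of which is printed, plus Akap11, overlapping antisense genes and the 5 genes most like Aqp4. One further gene of the endfoot group is not reported here.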

Additional observations from a re-analysis of the deposited data

Results flagged for a closer look

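Mlc1 in cKO replicate 1, at 198 CPM, lay far from the other 3 cKO libraries, whose values were 172 to 175 CPM. The gap was 0.875 of the group's range, above the value of 0.829 set for 4 samples. Of 18 groups of 4 libraries (9 genes, 2 groups each) this was the 1 that was so far out, and chance alone gives about 1 in 20.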

How the results depend on the processing

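In all 18 other fits 0 of the 8 partners and 0 genes of the 7 related lists passed. The log2 fold change of Aqp4 ran from 0.41 (without control replicate 2) to 0.50 (without cKO replicate 1) with 1 library left out, and from 0.45 to 0.52 in the other 10 fits. The count of all genes called was 4, and 7 with no filter beyond 1 read, 2 with limma voom, 2 with the replicate block and 2 without control replicate 1 and cKO replicate 1 together; with 1 library left out it ran from 0 to 3. It was 0 without control replicate 2 or cKO replicate 2. The cause was not tested. Aqp4 relative to the astrocyte markers was 0.54, or 0.43 with equal weight per marker, and ran from 0.51 to 0.57 with 1 library left out. Signs turned only close to 0: Hepacam was at -0.015 with GC-content offsets, -0.0028 without control replicate 2, -0.016 without control replicate 4, -0.018 without cKO replicate 1 and -0.0060 without both libraries that stand apart, and Gjb6 was at 0.0045 without cKO replicate 1 and 0.0083 without both. With 1 library left out Hepacam ran from -0.018 to 0.047 and Gjb6 from -0.040 to 0.0045. Kcnj10 was at 0.11 without cKO replicate 1 and at 0.23 without cKO replicate 4, its lowest and highest values with 1 library left out, and its unadjusted edgeR p was under 0.05 in 3 of these 8 fits.

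The labels do not say that the replicate numbers pair the libraries. Deviations of same-numbered libraries from their group means correlated by -0.05 to 0.07, and cKO replicate 1 correlated best with control replicate 2. Such correlations cannot show whether libraries were paired by litter or handling. Under the replicate block Kcnj10 stood at 0.16 (edgeR adjusted p 0.919) and Aqp4 at 0.46. With 4 libraries a group and SE of 0.055 to 0.070 for the partners, smaller differences than the intervals given are not excluded.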
